A study of Mus musculus with 6 samples.

Results

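The 38 genes described here mark cells other than neurons, and their RNA was measured in cultures of mouse hippocampal neurons. They are 10 genes of astrocytes, 7 of the oligodendrocyte lineage, 9 of the choroid plexus, 5 of fibroblasts, 4 of microglia and 3 of blood vessels. They were chosen by symbol, through the Ensembl identifiers of the deposited tables, from 22667 listed genes, and all 38 had values. The cultures came from C57bl/6 mouse embryos at E16.5 and were kept 10 days in vitro; no transgene or mutation is named in the labels. One group was left untreated, a second was exposed to 55 mM KCl for 0.5 h, and the third to 55 mM KCl for 3 h. Each group has 2 libraries, numbered replicate 1 and replicate 2 and described as biological duplicates, so there are 6 in all. The labels do not say whether replicates with the same number share a dissection or plating, nor whether glial growth was held back.

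Raised potassium depolarises neurons directly and is used to imitate activity. A culture of embryonic hippocampus also carries the precursors of astrocytes and oligodendrocytes, which go on dividing and maturing in the dish. The choroid plexus, the epithelium that secretes cerebrospinal fluid, and the fibroblast-bearing meninges lie against the hippocampus at this stage and can be taken along in a dissection. Microglia enter the brain from the yolk sac, and endothelial cells and mural cells (pericytes and smooth muscle) form its vessels. In bulk RNA, fewer cells of a type and less RNA per cell cannot be told apart, and this holds for every value given here.

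The libraries held 98882007 to 141865913 counts, and 15895 genes passed the filter on low counts. Activity genes responded in both replicate numbers: the summed level of 8 activity genes (Fos, Arc, Bdnf and others) at 0.5 h was 9.59 times its untreated level in replicate 1 and 11.1 times in replicate 2, and at 3 h 13.7 and 12.8 times. Levels are the authors' cRPKM, an RPKM per gene. A gene was called in a comparison when its adjusted p in edgeR's quasi-likelihood test was under 0.05, with Benjamini-Hochberg adjustment over all 15895 genes. Errors after log2 fold changes are standard errors of the fit. Of the 38 genes, 37 were tested; Cx3cr1 had 2 to 7 counts per library and was not.

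The 250 bases before the annotated start are shown for 4 of the genes described below, so that the promoters of an astrocyte filament gene, an astrocyte lipid carrier, a choroid channel and a fibroblast collagen can be set side by side. The sequences are RefSeq's on GRCm38.p6, whose promoter table holds 22 of the 38 genes, written 5′ to 3′ on the gene's strand. They are Gfap at chr11:102897201-102897450 (minus strand), Fabp7 at chr10:57784673-57784922 (plus), Kcnj13 at chr1:87394730-87394979 (minus) and Col3a1 at chr1:45311288-45311537 (plus). Capitals mark TATAAA, the core of the TATA box.
Gfap: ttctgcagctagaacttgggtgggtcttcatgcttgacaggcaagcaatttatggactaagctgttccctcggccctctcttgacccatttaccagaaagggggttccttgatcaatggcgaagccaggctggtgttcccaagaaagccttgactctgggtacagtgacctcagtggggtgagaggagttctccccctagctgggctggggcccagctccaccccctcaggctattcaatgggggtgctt
Fabp7: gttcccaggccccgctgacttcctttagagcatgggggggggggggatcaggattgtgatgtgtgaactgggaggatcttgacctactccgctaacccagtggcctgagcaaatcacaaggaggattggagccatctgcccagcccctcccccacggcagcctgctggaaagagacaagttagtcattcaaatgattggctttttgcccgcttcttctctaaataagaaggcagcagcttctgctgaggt
Kcnj13: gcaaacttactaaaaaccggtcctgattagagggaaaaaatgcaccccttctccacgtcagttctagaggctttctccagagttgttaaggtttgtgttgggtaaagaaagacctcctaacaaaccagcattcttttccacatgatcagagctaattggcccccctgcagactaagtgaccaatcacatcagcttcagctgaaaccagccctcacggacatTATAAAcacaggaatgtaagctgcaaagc
Col3a1: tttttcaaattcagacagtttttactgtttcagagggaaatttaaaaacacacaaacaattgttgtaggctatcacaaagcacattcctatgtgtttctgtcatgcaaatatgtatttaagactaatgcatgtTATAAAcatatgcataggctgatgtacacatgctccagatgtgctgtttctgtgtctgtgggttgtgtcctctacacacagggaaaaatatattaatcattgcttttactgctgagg
TATAAA was searched on both strands, with TGANTCA (the AP-1 element bound by Fos and Jun), TGACGTCA (the cAMP response element) and TAATCC (the core of the Otx2 element). None of the 4 windows held more than 1 of these motifs. Kcnj13 held TATAAA 29 to 24 bases before its start and Col3a1 held it 117 to 112 bases before, while Gfap and Fabp7 held none of the 4 motifs. Over 32851 promoter entries of the same length, 12.4% held TATAAA, 6.75% TGANTCA, 1.55% TGACGTCA and 6.25% TAATCC. A match describes the letters in the window and does not show a site in use.

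Astrocyte genes had the highest levels of the 38. Averaged over the 6 libraries, Fabp7 had 1032 cRPKM, Slc1a3 450.4, Aldoc 299, Slc1a2 228 and Gfap 198, and 98.75% of all genes with a value had a lower mean than Gfap. Olig1 (181 cRPKM), Ttr (92.4) and Dcn (32.0) led the oligodendrocyte, choroid and fibroblast groups. Microglia and vessel genes were low, with Aif1 at 0.692 and Pdgfrb at 1.82 cRPKM as their highest means, though most choroid and fibroblast genes averaged less than Pdgfrb. A mean of at least 1 cRPKM was reached by 23 genes and of at least 10 by 15, and 2 (Cx3cr1 and Cldn5) stayed under 0.1. Means over libraries hide a split within every group of samples, since for many of these genes the libraries numbered 1 and those numbered 2 stood far apart, as the plot of single-library levels shows.

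**Figure D1:**
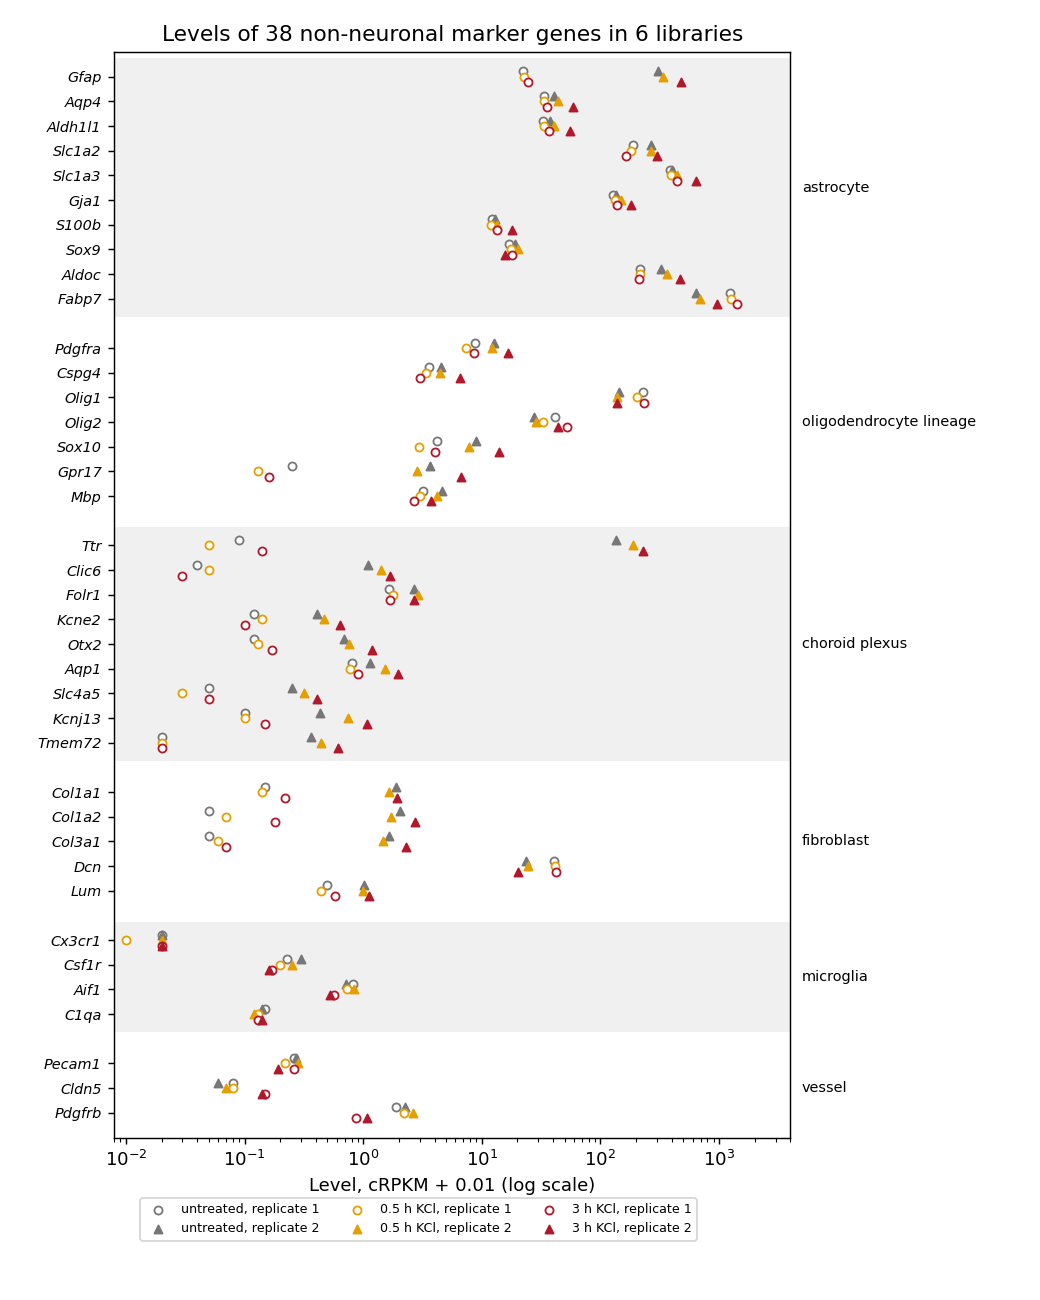
Level of each of the 38 genes in each library, as cRPKM + 0.01 on a log axis. Circles are libraries numbered 1 and triangles those numbered 2, in grey for untreated, orange for 0.5 h KCl and red for 3 h KCl. Circles and triangles lie furthest apart for Ttr, Tmem72, Clic6, the 3 collagens, Gpr17 and Gfap, whatever the colour.

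The difference between replicate numbers was tested first, over the 3 pairs of libraries with the same treatment, as replicate 1 over replicate 2. Of the 37 genes tested, 24 were called, 4 higher and 20 lower in replicate 1. Over all genes the share called was 12%, with 5.03% higher and 6.94% lower. The median log2 difference of the 37 was −0.59, beside −0.009 over all genes. A difference of more than 2-fold either way was found for 13 of the 37 (35.1%), all lower in replicate 1, and for 603 of 15895 genes (3.79%). The 2 sets of libraries did not overlap for 3 genes that were higher and 23 that were lower in replicate 1, as for 7.23% and 15.2% of all genes. By size of difference, Ttr ranked 1, Tmem72 5, Clic6 6, Col3a1 10, Col1a2 14, Gpr17 15, Gfap 24 and Col1a1 33 of the 15895. In the sentences that follow, 3 values in a row are the untreated, 0.5 h and 3 h libraries of 1 replicate number. A mean ± SD with n = 3 is over those same 3 libraries, which differ in treatment and may share a culture. There n counts libraries, not independent cultures.

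Choroid plexus genes showed the widest gap: all 9 were called lower in replicate 1, with a median log2 difference of −2.72. Ttr, the thyroxine carrier that choroid epithelium secretes, had 0.08, 0.04 and 0.13 cRPKM in replicate 1, against 136, 189 and 229 cRPKM in replicate 2. Its 3 libraries numbered 1 held 13, 7 and 21 counts, and those numbered 2 held 21236, 25651 and 26475. The log2 difference was −11.04 ± 0.19 (adjusted p = 0.0004 in edgeR), and the groups were far from overlapping. Ttr was thus near 0 in all libraries numbered 1 and abundant in all libraries numbered 2, in treated and untreated cultures alike.

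The other choroid genes were at lower levels and differed by less. Otx2, the homeodomain factor that maintains the choroid epithelium, had 0.11, 0.12 and 0.16 cRPKM in replicate 1 and 0.68, 0.75 and 1.17 in replicate 2 (log2 difference −2.68 ± 0.13, adjusted p = 0.0036 in edgeR). Clic6, of the intracellular chloride channel family, had 0.03, 0.04 and 0.02 cRPKM in replicate 1 and 1.08, 1.41 and 1.68 in replicate 2 (−5.50 ± 0.22, adjusted p = 0.0023). Ion transporters of the epithelium behaved alike. The potassium channel Kcnj13 had 0.09, 0.09 and 0.14 cRPKM in replicate 1 and 0.42, 0.74 and 1.07 in replicate 2 (−2.72 ± 0.20, adjusted p = 0.0065). Kcne2, an accessory subunit of potassium channels, had 0.11, 0.13 and 0.09 cRPKM in replicate 1 and 0.40, 0.46 and 0.63 in replicate 2 (−2.12 ± 0.24, adjusted p = 0.013). The bicarbonate cotransporter Slc4a5 had 0.04, 0.02 and 0.04 cRPKM in replicate 1 and 0.24, 0.31 and 0.40 in replicate 2 (−3.14 ± 0.29, adjusted p = 0.0085). None of these 5 genes overlapped between the replicate numbers. Tmem72, a membrane protein of unstated role, had 6, 3 and 3 counts in replicate 1 and 167, 175 and 208 counts in replicate 2 (adjusted p = 0.0036), too few in replicate 1 for a fold.

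Folr1 and Aqp1 stood apart from the rest of the choroid group in the size of the gap. The folate receptor gene Folr1 had 1.64, 1.77 and 1.66 cRPKM in replicate 1 and 2.68, 2.89 and 2.70 in replicate 2 (−0.65 ± 0.10, adjusted p = 0.021). The water channel gene Aqp1 had 0.79, 0.77 and 0.89 cRPKM in replicate 1 and 1.13, 1.53 and 1.96 in replicate 2 (−0.84 ± 0.14, adjusted p = 0.027). Both kept a level in replicate 1 that most of the other choroid genes did not reach. The Folr1 call was lost without the untreated pair or the 0.5 h pair of libraries (adjusted p up to 0.099). Of 15 further choroid genes, 9 were called lower and 1 higher in replicate 1, and the lower ones included Igf2 (0.203 ± 0.00577 cRPKM in replicate 1 and 3.64 ± 0.445 in replicate 2, SD, n = 3; log2 difference −4.13), a growth factor of choroid and meninges, and Enpp2, the autotaxin gene (−1.23). The higher one was Igfbp2.

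Fibroblast genes split in 2 directions. The 3 collagens were lower in replicate 1. Col3a1, of fibrillar type III collagen, had 0.04, 0.05 and 0.06 cRPKM in replicate 1 against 1.64, 1.47 and 2.28 in replicate 2, a log2 difference of −5.10 ± 0.13 (adjusted p = 0.00071 in edgeR). Col1a1 and Col1a2 make up type I collagen. Col1a1 had 0.14, 0.13 and 0.21 cRPKM in replicate 1 against 1.87, 1.63 and 1.91 in replicate 2 (−3.44 ± 0.14, adjusted p = 0.0023). Col1a2 had 0.04, 0.06 and 0.17 cRPKM in replicate 1 against 2.05, 1.70 and 2.71 in replicate 2 (−4.65 ± 0.33, adjusted p = 0.0056). For each collagen the 2 sets of libraries did not overlap. Lum, a small proteoglycan that organises collagen fibrils, had 0.49, 0.43 and 0.57 cRPKM in replicate 1 against 1.01, 0.98 and 1.10 in replicate 2 (−1.0 ± 0.11, adjusted p = 0.013). Its relative Dcn went the other way, with 40.9, 41.3 and 42.1 cRPKM in replicate 1 against 23.4, 24.5 and 20.1 in replicate 2 (0.92 ± 0.09, adjusted p = 0.0086). Because Dcn made up most of the summed fibroblast level, that sum was higher in replicate 1 (41.6, 41.9 and 43.1 cRPKM, against 30.0, 30.3 and 28.1 in replicate 2) while 4 of its 5 genes were lower. Of 21 further fibroblast genes tested, 13 were lower in replicate 1 and 1, Prrx1, was higher. Among the lower ones, Col6a1 had 3.96 ± 0.27 cRPKM in replicate 1 and 16.7 ± 2.13 in replicate 2 (SD, n = 3), and Slc6a13, a GABA transporter of meninges, had a log2 difference of −4.43.

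In the astrocyte group 3 genes were lower in replicate 1, 1 was higher and 6 were not called. Gfap, the intermediate filament by which astrocytes are usually stained, had 22.4, 22.8 and 24.6 cRPKM in replicate 1 and 307, 335 and 475 cRPKM in replicate 2. Its log2 difference was −3.93 ± 0.11 (adjusted p = 0.0011 in edgeR). Other astrocyte genes did not share a gap of that size. Slc1a2, the glutamate transporter of mature astrocytes, had 187, 183 and 165 cRPKM in replicate 1 and 268, 267 and 300.3 in replicate 2 (−0.59 ± 0.09, adjusted p = 0.023). Aldoc, a glycolytic aldolase, had 216, 215 and 211 cRPKM in replicate 1 and 322, 362 and 467 in replicate 2 (−0.77 ± 0.11, adjusted p = 0.021). Fabp7, a lipid-binding protein of radial glia and young astrocytes, was higher, with 1231, 1254 and 1409 cRPKM in replicate 1 and 641, 690.1 and 967 in replicate 2 (0.83 ± 0.09, adjusted p = 0.011). The sets did not overlap for these 4 genes. The Slc1a2 call was lost without the 0.5 h pair of libraries (adjusted p = 0.098).

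The 6 astrocyte genes that were not called differed by at most 0.41 on the log2 scale. They were the water channel gene Aqp4 (−0.41 ± 0.10, adjusted p = 0.055), the folate enzyme gene Aldh1l1 (−0.30 ± 0.09, 0.085), the glutamate transporter gene Slc1a3 (−0.19 ± 0.11, 0.29), the gap junction gene Gja1 (−0.17 ± 0.08, 0.22), the calcium-binding S100b (−0.17 ± 0.07, 0.20) and the transcription factor Sox9 (−0.00 ± 0.11, 0.99, all edgeR adjusted p). Summed over the 10 genes, replicate 1 had 2271, 2298 and 2493 cRPKM and replicate 2 had 2181, 2367 and 3174, so the sums differed little in untreated and 0.5 h libraries. The 15 further astrocyte genes had 9 called lower in replicate 1 and none higher; Ntsr2, a neurotensin receptor, had 8.30 ± 0.171 cRPKM in replicate 1 and 26.1 ± 3.38 in replicate 2 (SD, n = 3), and the lipoprotein genes Clu (−1.29) and Apoe (−0.69) were among them. Of 9 reactive astrocyte genes tested, 5 were lower in replicate 1, with Serpina3n (−1.34) and the cytokine receptor Osmr (−1.67) as examples.

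The oligodendrocyte lineage also split. Transcription factors that start the lineage were higher in replicate 1: Olig1 had 231, 204 and 232 cRPKM in replicate 1 and 144, 137 and 139 in replicate 2 (0.72 ± 0.07, adjusted p = 0.0089 in edgeR). Olig2 had 41.7, 32.6 and 52.4 cRPKM in replicate 1 and 27.8, 28.5 and 43.6 in replicate 2 (0.40 ± 0.08, adjusted p = 0.046). The Olig2 libraries overlapped, and its call was lost without the untreated pair and under 3 of 6 other settings (adjusted p up to 0.14). Genes of later steps were lower. Sox10, a factor of committed oligodendrocyte cells, had 4.22, 2.97 and 4.02 cRPKM in replicate 1 and 8.93, 7.75 and 14.1 in replicate 2 (−1.37 ± 0.14, adjusted p = 0.0095). Gpr17, a receptor of differentiating precursors, had 0.24, 0.12 and 0.15 cRPKM in replicate 1 and 3.64, 2.84 and 6.65 in replicate 2 (−4.60 ± 0.30, adjusted p = 0.0051). Pdgfra, the growth factor receptor of precursors, had 8.75, 7.31 and 8.60 cRPKM in replicate 1 and 12.7, 12.3 and 16.6 in replicate 2 (−0.70 ± 0.08, adjusted p = 0.013). The sets did not overlap for these 3 genes. Mbp, of myelin, had 3.19, 3.02 and 2.65 cRPKM in replicate 1 and 4.65, 4.15 and 3.75 in replicate 2 (−0.45 ± 0.07, adjusted p = 0.025), a call lost without the untreated or the 0.5 h pair. The precursor proteoglycan gene Cspg4 was not called (−0.57 ± 0.16, adjusted p = 0.082). Of 14 further oligodendrocyte genes tested, 8 were lower in replicate 1, among them Bcas1 (0.25 ± 0.01 cRPKM in replicate 1 and 2.55 ± 0.646 in replicate 2, SD, n = 3), and 1, Ptprz1, was higher.

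None of the 3 microglia genes and 3 vessel genes tested was called between replicate numbers. Their log2 differences ran from −0.15 to 0.09 in microglia and from −0.22 to 0.31 in vessels. Other markers of the same cells were near 0: 13 of 19 further microglia genes and 12 of 17 further endothelial genes averaged under 0.1 cRPKM. They included the microglial Tmem119, P2ry12 and Trem2 and the endothelial Cdh5, Flt1 and Tie1. Among the few above 1 cRPKM were Cd68, a lysosomal gene used in other cells too, and Egfl7 and Mfsd2a. Of 13 further mural genes 6 averaged under 0.1 cRPKM, among them the pericyte genes Abcc9, Kcnj8 and Higd1b, while Rgs5 (1.59 to 4.22 cRPKM) and Notch3 (3.58 to 5.86) were present in every library. Some of these further genes did differ by replicate number. Of 9 mural genes tested, 4 were lower in replicate 1 (Rgs5, Anpep, Vtn and Acta2) and Notch3 was higher. Acta2, the smooth muscle actin gene, had 0.01 ± 0.01 cRPKM in replicate 1 and 0.307 ± 0.0635 in replicate 2 (SD, n = 3). Of 11 microglia genes tested 2 were lower in replicate 1, Cd68 and Tmem119, the second at 16 counts or fewer in every library and not called by DESeq2 or limma, and of 13 endothelial genes 1 was lower, Mfsd2a. The calls of Cd68, Mfsd2a and Notch3 were lost without the 0.5 h pair of libraries. The words microglia and vessel stand below for these gene lists, not for cells shown to be present.

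Neuronal lists also differed by replicate number. Of 14 pan-neuronal genes 3 were higher in replicate 1 and none lower, with Dcx, a microtubule protein of young neurons, at 77.2 ± 7.35 cRPKM in replicate 1 and 38.8 ± 7.49 in replicate 2 (SD, n = 3). Of 13 interneuron genes 7 were lower in replicate 1, including Vip (−5.92) and Gad2 (−1.14). Progenitor genes (3 of 7 higher, Nes at 1.15) and cycling genes (6 of 10 higher) were called higher in replicate 1, with none lower. The part of culture age, dissection or plating in these differences was not tested.

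**Figure D2:**
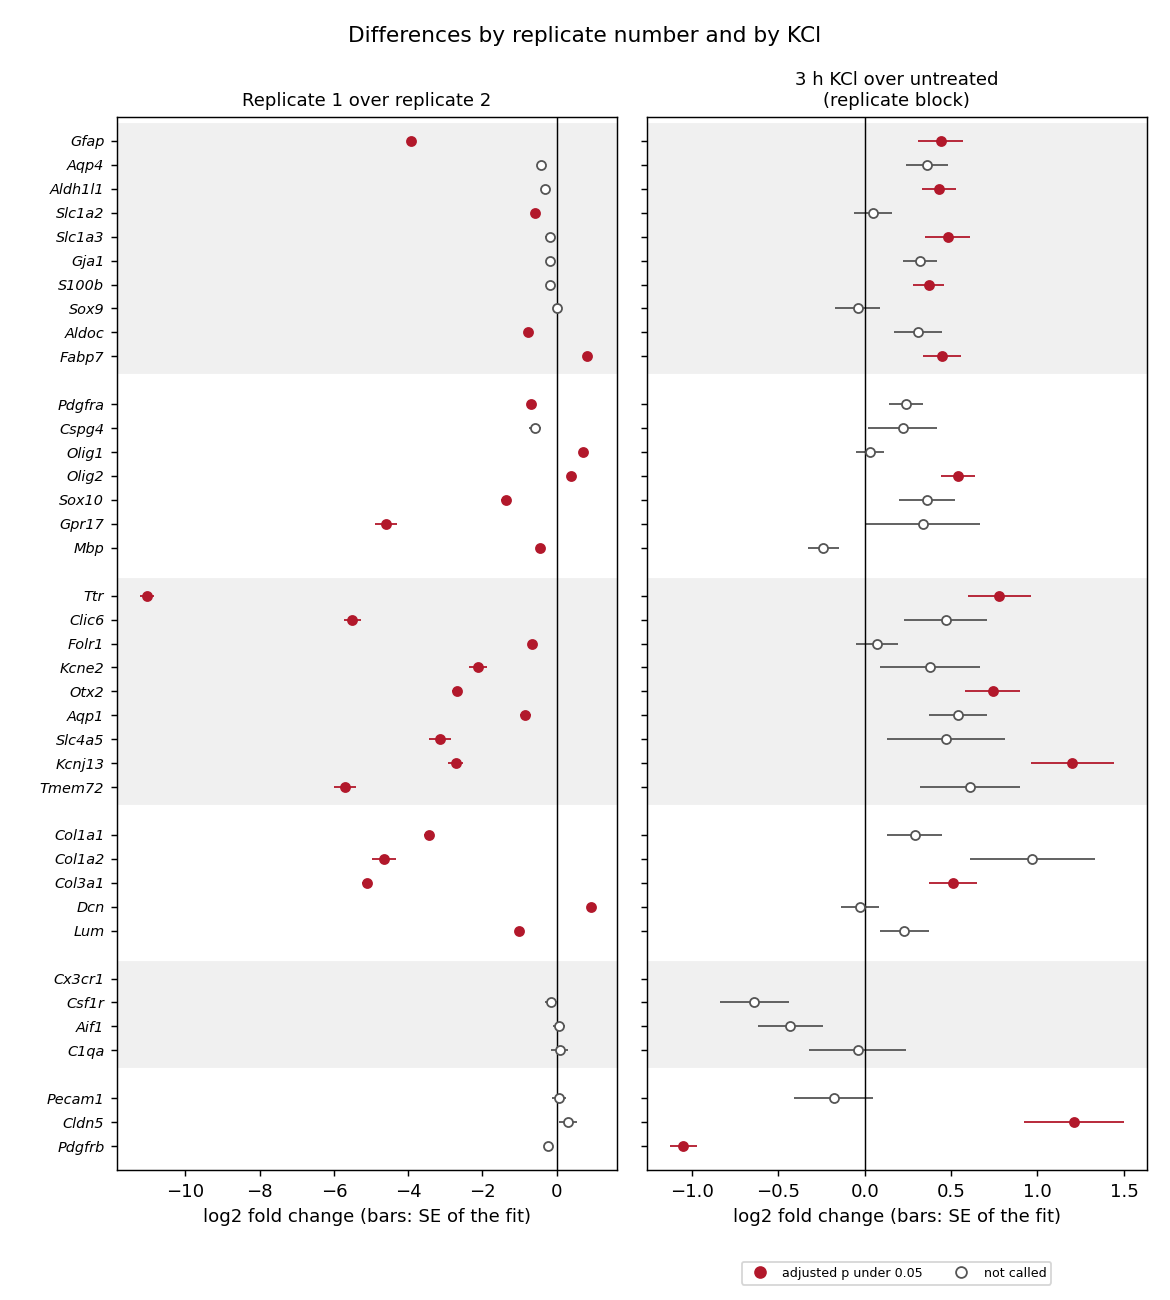
Log2 fold changes of the 37 tested genes with the standard error of the fit as bars. The left panel gives replicate 1 over replicate 2 and the right panel 3 h KCl over untreated in the fit with replicate number as a block, each with its own scale, and filled points have an adjusted p under 0.05. Differences by replicate number reach −11.04 (Ttr), whereas KCl differences stay between −1.05 (Pdgfrb) and 1.21 (Cldn5). The point for Tmem72 on the left rests on 3 to 6 counts per library in replicate 1.

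After 0.5 h of KCl none of the 37 genes was called against untreated, where 6 of 15895 genes (0.0377%) were called in all, nor with replicate number as a block, where 13 (0.0818%) were. DESeq2 and limma called none of them either. The block fit called 3 of the 37 when the 3 h library of replicate 1 was left out and 6 when that of replicate 2 was. The median log2 change of the 37 was 0.04, and over all genes 0.000. The group values lay close to each other: within replicate 1 the summed astrocyte level at 0.5 h was 1.01 times the untreated one and within replicate 2 it was 1.09 times, and for the oligodendrocyte genes the ratios were 0.869 and 0.956. The choroid sum was 1.03 times untreated in replicate 1 and 1.38 times in replicate 2. Before adjustment, p fell below 0.05 for 100 higher and 28 lower genes of the whole table.

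After 3 h of KCl 1 of the 37 genes was called against untreated, and it was lower, beside 15.6% of all genes (8.71% higher and 6.84% lower). The 2 groups did not overlap for 5 of the 37 that were higher and 3 that were lower, as for 24.1% and 35.9% of all genes. The called gene was Pdgfrb, the receptor by which pericytes respond to platelet-derived growth factor. It had 1.90 and 2.25 cRPKM in untreated libraries, 2.19 and 2.62 at 0.5 h, and 0.86 and 1.07 at 3 h (replicate 1, then replicate 2). Both 3 h libraries lay below all 4 others. The log2 change at 3 h was −1.05 ± 0.16 against untreated (adjusted p = 0.017 in edgeR) and −1.24 ± 0.16 against 0.5 h (adjusted p = 0.016). Within the replicate numbers the 3 h level was 0.453 and 0.476 times the untreated one. The call against untreated was lost without either untreated library (adjusted p = 0.079 and 0.12), and that against 0.5 h without either 0.5 h library (0.10 and 0.11). With the block it held at an adjusted p of 0.0031 and 0.0036, also without each library in turn. Of 9 further mural genes tested, none was called lower at 3 h and 2 were called higher; Notch3, a mural receptor that was not called, was at 0.747 and 0.871 times its untreated level in replicate 1 and replicate 2.

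**Figure D3:**
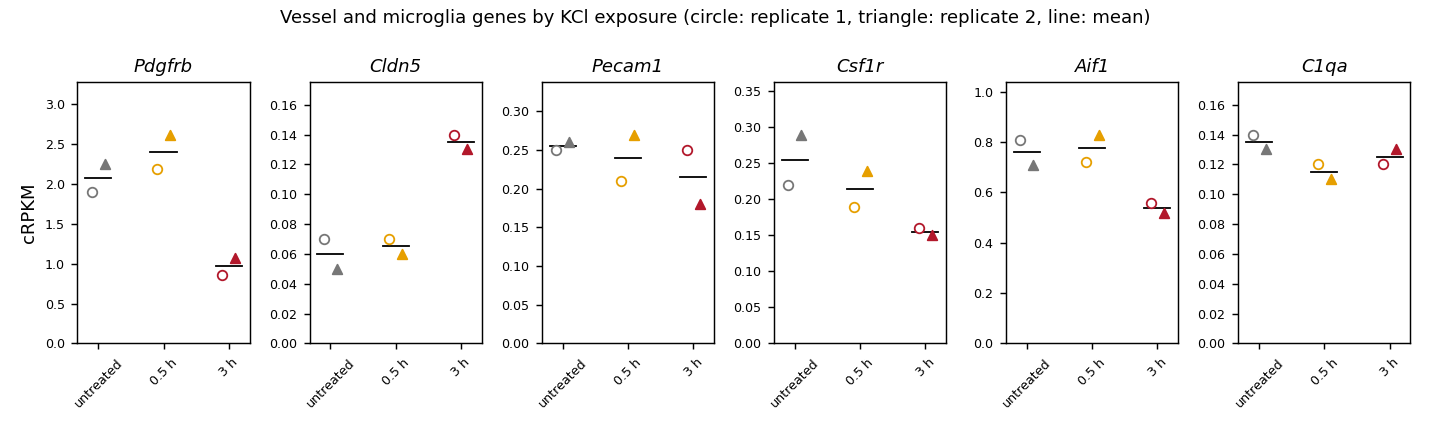
cRPKM of 3 vessel genes and 3 microglia genes by KCl exposure, with circles for replicate 1, triangles for replicate 2 and a line at the mean of the 2. Pdgfrb at 3 h lies below every other library and Cldn5 at 3 h above every other one, while each replicate number keeps the same direction. Pdgfrb was called at 3 h against untreated with and without replicate number as a block. Cldn5, which rests on few counts, was called only with the block (adjusted p = 0.078 in edgeR without it). The other 4 genes were not called.

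With replicate number as a block, 12 of the 37 genes were called at 3 h against untreated, 11 higher and Pdgfrb lower, where 37.2% of all genes were called (18.6% higher and 18.6% lower). Higher calls thus made up a larger share of the 37 than of all genes, and lower calls a smaller one. The list was chosen with earlier results of these data known, so these shares carry no test. The median log2 change of the 37 was 0.36, beside −0.025 over all genes. Without untreated replicate 2 only Pdgfrb of the 12 was still called, and without untreated replicate 1, 8 were. Without either 0.5 h library, 6 of the 12 were. All 12 kept their direction in the block fit without each library in turn. Without the block the adjusted p of the 11 ran from 0.078 to 0.89. A gap between replicate numbers then counts as spread within each treatment. Not all of the 11 were called between replicate numbers, with Slc1a3 at −0.19 (adjusted p = 0.29 in edgeR) and S100b at −0.17 (0.20). The common coefficient of variation that edgeR estimated over all genes was 19.2% without the block and 9.72% with it. The part of each in these calls was not tested.

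Astrocyte genes gave 5 of these calls. Slc1a3 had 390 and 398 cRPKM in untreated libraries, 394 and 444 at 0.5 h, and 442 and 635 at 3 h (replicate 1, then 2), with a block log2 change of 0.48 ± 0.13 (adjusted p = 0.04 in edgeR with the block, 0.11 without). Aldh1l1 had 32.9 and 37.5 cRPKM untreated, 33.7 and 40.6 at 0.5 h, and 36.9 and 55.9 at 3 h (0.43 ± 0.10, adjusted p = 0.032 with the block, 0.16 without). S100b had 12.1 and 12.8 cRPKM untreated, 12 and 13.5 at 0.5 h, and 13.6 and 17.8 at 3 h (0.37 ± 0.09, adjusted p = 0.032 with the block, 0.11 without). In all 3 the 3 h library of replicate 2 stood highest and that of replicate 1 close to the rest. Gfap and Fabp7 were also called with the block, at 0.44 ± 0.13 (adjusted p = 0.046, 0.83 without) and 0.45 ± 0.11 (0.032, 0.56 without). Within replicate 1 the 3 h level of Gfap was 1.10 times the untreated one and within replicate 2 it was 1.55 times, and for Fabp7 the ratios were 1.15 and 1.51. The other 5 astrocyte genes were not called, with block values from −0.04 (Sox9) to 0.36 (Aqp4).

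The other 6 higher calls with the block fell in the oligodendrocyte, choroid, fibroblast and vessel groups. Olig2 was higher at 3 h with the block (0.54 ± 0.10, adjusted p = 0.018, 0.17 without), and its 3 h level was 1.26 times the untreated one in replicate 1 and 1.57 times in replicate 2. The other 6 oligodendrocyte genes were not called, and for Gpr17 the replicate numbers went opposite ways (0.625 times in replicate 1, 1.83 times in replicate 2). In the choroid group Ttr (0.78 ± 0.18, adjusted p = 0.027, 0.89 without the block), Otx2 (0.74 ± 0.16, 0.022, 0.71 without) and Kcnj13 (1.20 ± 0.24, 0.02, 0.53 without) were called higher. For Ttr the 3 h level was 1.63 times the untreated one in replicate 1, where it rests on 21 counts at 3 h and 13 untreated, and 1.68 times in replicate 2. Col3a1 was the 1 fibroblast gene called (0.51 ± 0.14, adjusted p = 0.043, 0.89 without). Cldn5, a tight junction gene of endothelium, had 0.07 and 0.05 cRPKM untreated, 0.07 and 0.06 at 0.5 h, and 0.14 and 0.13 at 3 h (1.21 ± 0.29, adjusted p = 0.032 with the block, 0.078 without), on 9 to 26 counts per library. Microglia genes were not called: Csf1r stood at −0.66 ± 0.27 (adjusted p = 0.14, 0.061 with the block) and Aif1 at −0.44 ± 0.26 (0.28, 0.13 with the block), and both 3 h libraries lay below both untreated ones.

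Between the KCl times, 3 h over 0.5 h, Pdgfrb was the 1 gene called of 37, and it was lower, beside 11.3% of all genes (6.39% higher and 4.87% lower). The block fit called 10 (31.2% of all genes): Aldh1l1, S100b, Fabp7, Pdgfra, Olig2, Sox10, Otx2, Col3a1 and Cldn5 higher, and Pdgfrb lower. Pdgfra and Sox10 were called in this comparison and not against untreated, and their log2 changes with the block were 0.42 ± 0.10 (adjusted p = 0.033, 0.47 without) and 0.74 ± 0.17 (0.03, 0.48 without). For both, replicate 1 had nearly the same level at 3 h as untreated (0.983 and 0.953 times), and replicate 2 had 1.31 and 1.58 times.

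In replicate 2 most choroid genes shared one order over time. There, 8 of 9 had their lowest level untreated and their highest at 3 h, as did 29.7% of all genes tested, while in replicate 1 this held for 1 of 9, as for 21% of all genes. Set against Ttr in the same library, Clic6 was 0.793%, 0.745% and 0.734% in the untreated, 0.5 h and 3 h libraries of replicate 2. Aqp1 was 0.829%, 0.809% and 0.857% of Ttr, and Tmem72 was 0.257%, 0.227% and 0.262%. Their ratios to Ttr thus varied little, while each of the 3 and Ttr itself was higher at 3 h than untreated in that replicate number. Kcnj13, at 0.308%, 0.391% and 0.468%, and Folr1, at 1.97%, 1.53% and 1.18%, did not keep a constant ratio. Each of these is a single library, so the ratios carry no test.

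The summed levels give the balance of glial and neuronal RNA in each library. At 3 h the pan-neuronal sum of 14 genes was 0.866 times its untreated level in replicate 1 and 0.665 times in replicate 2, and the excitatory neuron sum of 9 genes was 0.85 and 0.534 times. Over the same libraries the astrocyte sum was 1.10 times untreated in replicate 1 and 1.46 times in replicate 2, and the choroid sum 1.08 and 1.67 times. So replicate 2 had the lower neuronal ratios and the higher astrocyte and choroid ratios. The oligodendrocyte sum was 1.03 and 1.12 times untreated, the fibroblast sum 1.04 and 0.938 times, the microglia sum 0.72 and 0.711 times and the vessel sum 0.563 and 0.539 times. RPKM shares out a fixed total, and the part of the neuronal ratios in the glial ones was not tested. None of the 14 pan-neuronal genes was called at 3 h without the block, and with it 3 were lower (Tubb3, Syt1 and Eno2) and none higher.

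**Figure D4:**
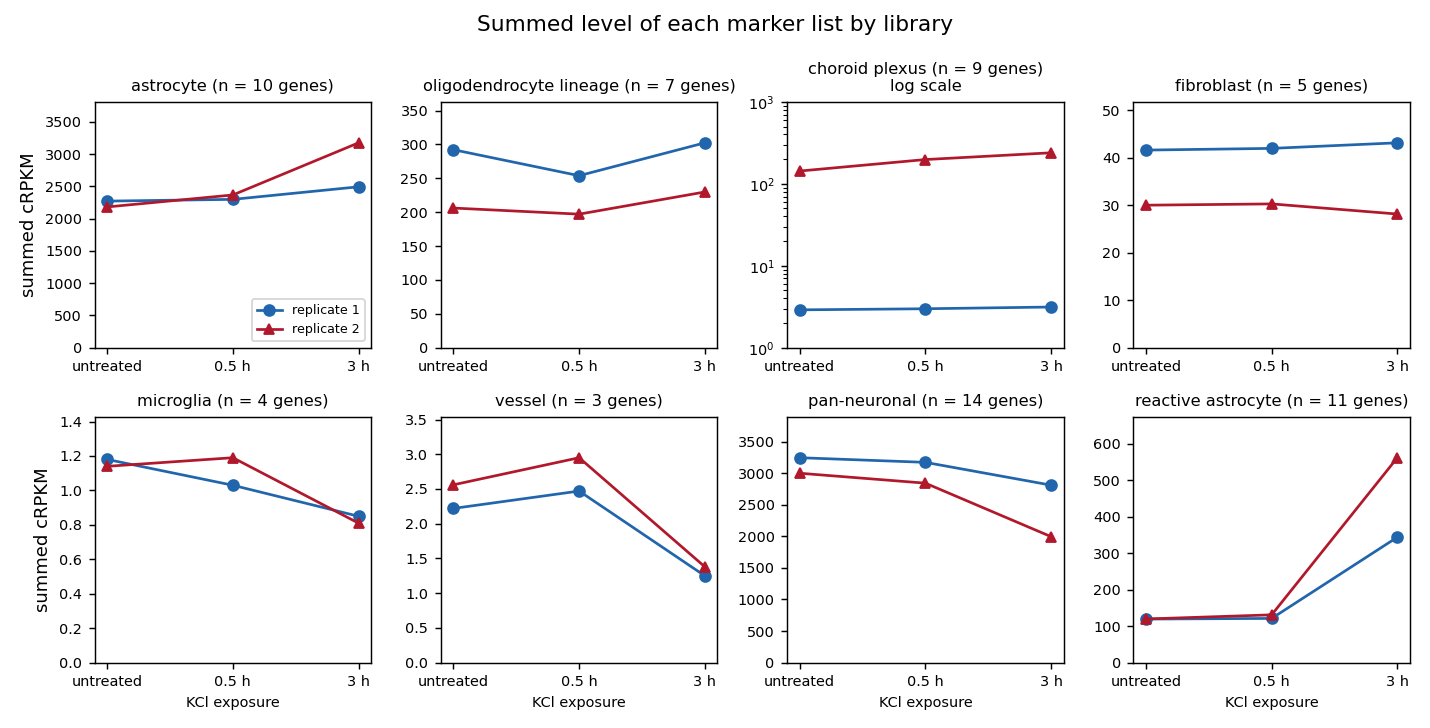
Summed cRPKM of the 6 groups of marker genes, of 14 pan-neuronal genes and of 11 reactive astrocyte genes, by KCl exposure. Blue circles are replicate 1 and red triangles replicate 2, and the choroid panel has a log axis. Choroid sums stay near 3 cRPKM in replicate 1 and lie between 143 and 239 in replicate 2. The reactive astrocyte sum at 3 h was 2.88 times its untreated level in replicate 1 and 4.69 times in replicate 2. Vim made up most of that sum, with a mean of 93.3 cRPKM untreated and 384 at 3 h. The median log2 ratio of the 11 genes at 3 h over untreated was 0.00 in replicate 1 and 0.48 in replicate 2.

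Reactive astrocyte genes, a list outside the 38, included calls at 3 h without the block. Of 9 tested, 3 were called higher and none lower, with a median log2 change of 0.65. Over all genes 8.71% were called higher and 6.84% lower, and the median was −0.023. Vim, an intermediate filament of astrocytes, fibroblasts and progenitors, had 102 and 84.9 cRPKM untreated, 103 and 93.1 at 0.5 h, and 307 and 460.3 at 3 h (replicate 1, then 2; 2.09 ± 0.21, adjusted p = 0.0073 in edgeR). S1pr3, a sphingosine phosphate receptor, had 2.29 and 3.88 cRPKM untreated, 2.51 and 4.56 at 0.5 h, and 17.8 and 53.1 at 3 h (3.56 ± 0.60, adjusted p = 0.02). Cd44, the hyaluronan receptor, had 3.33 and 4.69 cRPKM untreated, 3.34 and 4.68 at 0.5 h, and 6.93 and 10.8 at 3 h (1.19 ± 0.27, adjusted p = 0.038). For each, both 3 h libraries stood above the other 4. All 3 calls were lost without either untreated library. That of Cd44 was also lost without 0.5 h replicate 1, without 3 h replicate 2, under library totals and under limma. Without the block the other 6 genes of that list were not called. With it Vim (adjusted p = 0.0044), S1pr3 (0.0022) and Cd44 (0.0022, all edgeR) stayed called. Over all left-out libraries, with and without the block, their log2 changes ran from 1.72 to 2.44, 2.64 to 4.12 and 0.9 to 1.45. Timp1 was also called higher with the block, a call lost without either untreated or either 0.5 h library. By function Vim, S1pr3 and Cd44 are not confined to astrocytes.

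Other glial and stromal lists held few calls at 3 h without the block, where 15.6% of all genes were called (8.71% higher and 6.84% lower). None of 15 further astrocyte genes was called, nor of 14 further oligodendrocyte genes, 11 microglia genes or 13 endothelial genes tested. The mural list had 2 of 9 called higher: Cnn1, a contractile calponin, had 0.10 and 0.14 cRPKM untreated, 0.11 and 0.07 at 0.5 h, and 1.82 and 12.5 at 3 h (5.92 ± 1.01, adjusted p = 0.02), and Tagln had a log2 change of 1.07 ± 0.25 (adjusted p = 0.042). Of the further choroid genes Kl, the klotho gene, was called lower (−1.34 ± 0.30, adjusted p = 0.039), and of the further fibroblast genes the transcription factor gene Foxc1 was called higher (0.80 ± 0.18, adjusted p = 0.04). Among cycling genes Pcna was called higher (0.79 ± 0.15, adjusted p = 0.027). Each of these calls was lost without either untreated library. Those of Kl and Foxc1 were lost whichever library was left out, and that of Pcna also without either 3 h library. The Tagln call was also lost without either 0.5 h library, without 3 h replicate 2 and under library totals. Those of Kl and Cnn1 were also lost under limma on log2(cRPKM + 1). All were called with the block, at adjusted p from 0.0041 (Pcna) to 0.012 (Kl and Tagln) in edgeR.

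With the block more genes of these lists were called at 3 h, where 37.2% of all genes were called (18.6% higher and 18.6% lower). Of 21 further fibroblast genes 7 were called higher and none lower, among them the collagen gene Col5a2 (0.66 ± 0.08, adjusted p = 0.0065 in edgeR with the block, 0.41 without) and the fibronectin gene Fn1 (0.59 ± 0.12, 0.023, 0.24 without). Of 15 further choroid genes 3 were higher and 1 lower, and of 15 further astrocyte genes 3 were higher, with Mlc1 at 0.56 ± 0.10 (0.015, 0.083 without), and 1 lower. The oligodendrocyte list had 1 higher and 1 lower, the endothelial list Mfsd2a higher and Kdr lower, the microglia list Cd68 higher, and the mural list the same 2 higher as without the block. Of these 22 calls, 5 were kept without untreated replicate 2, 14 without untreated replicate 1, 15 without either 0.5 h library, 22 without 3 h replicate 1 and 18 without 3 h replicate 2. Of 10 cycling genes 8 were called higher with the block, and 3 of these were kept without untreated replicate 2.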

How the data were processed

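RNA-seq libraries were made from TriReagent RNA with the TruSeq RNA library prep kit, which does not mark the strand, per the labels' protocols. Genome build mm9 and Bowtie are named in the submitters' processing notes; versions, annotation and how multiply mapping reads were handled are not stated there. Each deposited table lists 22667 genes with a cRPKM value, an RPKM computed by the authors whose prefix is not defined in the sources used here, and a whole-number read count per gene, deposited without normalization; 1114 genes had no value. Symbols came from a GENCODE mouse annotation (94.89% of genes matched). Reads of overlapping or antisense genes cannot be separated without strand.

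Counts were tested with edgeR 4.0.16 (R 4.3.3): TMM scaling, a filter on low counts (filterByExpr, minimum 10; 15895 genes, 99.995% of counts kept), a quasi-likelihood fit of treatment over all 6 libraries (3 residual degrees of freedom) and Benjamini-Hochberg adjustment at 0.05. Replicate number was added as a block in a second fit, which also gave replicate 1 over replicate 2. The labels do not say that a number marks a shared culture. In the data, the per-gene differences between replicate 1 and replicate 2 correlated between treatments (Pearson r = 0.805 for untreated and 0.5 h, 0.577 for untreated and 3 h, 0.613 for 0.5 h and 3 h, over 15895 genes). The fit with the block is therefore given beside the fit without it. Calls of KCl effects are from the fit without the block unless the block is named. That fit leaves out any pairing by replicate number. Block calls are given for the members and, at 3 h against untreated, for the glial and stromal lists. The replicates are biological duplicates per the labels; p-values measure the spread between these 6 libraries. With 98882007 to 141865913 counts per library, counting error is small except for genes with few counts. Counts are given for only some of these (Cx3cr1, Ttr, Tmem72, Cldn5 and Tmem119). Folds of other genes under about 0.1 cRPKM in some libraries, such as Clic6, Slc4a5, Slc6a13, Vip and Kl, also carry that error.

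The members and marker lists (15 further lists, 196 of 197 genes measured) were chosen with earlier results of these data known. All members are accounted for by counts and ranges. Every library is given for members called in any comparison with or without the block, for the leading members of each group, and of each further list up to 4 called genes of smallest adjusted p were named; in the further lists a few genes outside this rule were named after their values were seen. Alternatives were RLE size factors, library totals, no filter, DESeq2 1.42.0, limma 3.58.1 on log2(cRPKM + 0.1) and log2(cRPKM + 1), and each library left out. The edgeR steps were tested on simulated data.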

Additional observations from a re-analysis of the deposited data

Results flagged for a closer look

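For 7 genes of the members and further lists, activity genes left aside, the KCl effect at 3 h differed from that at 0.5 h. The test was that of 3 h over 0.5 h in edgeR (both effects share the untreated libraries, which cancel in this comparison). It called 11.3% of all 15895 genes, so calls as such are not particular to these lists. On the log2 scale, the effect at 3 h minus that at 0.5 h was −1.24 for Pdgfrb (adjusted p = 0.016), 2.03 for Vim (0.011), 3.39 for S1pr3 (0.028) and 1.22 for Cd44 (0.044). It was 6.30 for Cnn1 (0.024), whose 3 h libraries had 1.82 cRPKM in replicate 1 and 12.5 in replicate 2. For Pcna it was 0.70 (0.042) and for Kl −1.30 (0.05 after rounding), which had 0.07 cRPKM in both 3 h libraries against 0.22 and 0.15 at 0.5 h. Each of these calls was lost without either 0.5 h library. Those of Pcna and Kl were lost whichever library was left out, and those of S1pr3 and Cd44 also without 3 h replicate 2. The Cd44 call was also lost without either untreated library, under library totals and under limma. That of Kl was lost under RLE size factors, no filter and limma, and that of Cnn1 under limma on log2(cRPKM + 1). With the block all 7 were called (adjusted p from 0.0031 to 0.016 in edgeR).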

How the results depend on the processing

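Direction and call were compared over scaling, filter, tool, block and left-out libraries. At 0.5 h against untreated, 6 genes were called; 13 with the replicate block, 13 with no filter, 37 with DESeq2, 10 with limma on log2(cRPKM + 0.1), and 0 to 6 with 1 library left out (with the block as well, 26 to 32 without an untreated or 0.5 h library, and 292 and 737 without the 3 h library of replicate 1 and of replicate 2). Of the 37 members 0 were called, and 0 to 6 with the block and 1 library left out. At 3 h against untreated, 2472 genes were called; 5917 with the replicate block, 4133 with DESeq2, 38 to 3739 with 1 library left out (with the block as well, 4115 and 2455 without untreated replicate 1 and 2, 4696 and 4677 without 0.5 h replicate 1 and 2, and 10847 and 9377 without 3 h replicate 1 and 2). Members called were 1; 12 with the block, 2 with DESeq2 (Pdgfrb and Slc1a3), 0 to 5 with 1 library left out (with the block as well, 7 without either 0.5 h library, 19 without 3 h replicate 2, and 2 to 30 in all). At 3 h against 0.5 h, 1789 genes were called; 4960 with the block, 3548 with DESeq2, 0 to 2915 with 1 library left out (with the block as well, 4780 and 4664 without untreated replicate 1 and 2, 10493 and 8793 without 3 h replicate 1 and 2, and down to 1678 without a 0.5 h library). Members called were 1; 10 with the block, 2 with DESeq2 (Pdgfrb and Olig2), 0 to 4 with 1 library left out (with the block as well, 9 without either untreated library, 17 without 3 h replicate 2, and 3 to 28 in all).

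Between replicate numbers 1903 genes were called, and 1060 to 7288 with 1 pair left out; of the members 24, and 22 to 29. With library totals the split at 3 h was 1115 higher and 1340 lower, where TMM gave 1384 and 1088, and that between replicate numbers 644 and 1352, where TMM gave 800 and 1103. Library totals moved the median of all genes at 3 h over 0.5 h to −0.104. Leaving out a library without the block turned some directions, since the remaining library of a group then stands against the other replicate number. The 3 h log2 change over untreated ran from −2.62 to 3.48 for Gfap, −0.00 to 0.96 for Fabp7, −8.92 to 10.50 for Ttr, −1.21 to 2.63 for Otx2, −0.74 to 2.79 for Kcnj13 and −3.72 to 4.79 for Col3a1. Over 0.5 h it ran from −0.05 to 0.85 for Pdgfra, −0.27 to 1.66 for Sox10, −1.32 to 2.48 for Otx2 and −3.54 to 4.60 for Col3a1. Genes under about 0.1 cRPKM rest on few counts, and 2 libraries per group limit every test.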
